A study of Mus musculus with 4 samples.

Results

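The genes described here are 45 mouse genes whose products carry, receive or block the Wnt signal outside the cell and at its surface. They were taken by symbol from a list, and all 45 were found among the 22180 genes measured. They comprised 15 Wnt ligands, 10 Frizzled receptors, 5 co-receptors and other Wnt receptors, 3 genes of Wnt production, release and inactivation, 6 secreted proteins that bind Wnt, and 6 genes of Dickkopf inhibitors and their Kremen receptors. Wnt1, Wnt2b, Wnt3a and Wnt8b were not members of this list.

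Wnt proteins are secreted signals that are given a lipid by Porcn and carried to the cell surface by Wls, and that lose the lipid again through the enzyme Notum. At the receiving cell they bind Frizzled receptors, together with Lrp5 or Lrp6 for signalling through beta-catenin, or with Ror1, Ror2 or Ryk for other responses. Sfrp proteins, Frzb and Wif1 hold Wnt outside the cell, whereas Dickkopf proteins such as Dkk1 act on Lrp5 and Lrp6. In the head of the embryo, low Wnt activity at the front favours forebrain and eye, and Wnt ligands at the dorsal midline pattern the forebrain.

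The samples were retinal aggregates, balls of cells grown from mouse embryonic stem cells in medium with matrigel that steers them towards retina. Total RNA was taken at day 7 or at day 4 of differentiation, with 2 arrays per day. All 4 samples were wild type and came from the same cell line, a derivative of EB5 (129/Ola) with GFP knocked in under the promoter of Rx (Rax, an eye field gene), so the reporter is present at both days. The design sets day 7 against day 4, the only contrast among these arrays. The labels do not say whether replicates were separate cultures, so the p-values cover no more than the variation among these arrays, and that may be technical.

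Values are log2 signals made with RMA by the authors, so that a difference of 1 is a 2-fold difference in normalized signal. Over all 41345 probe sets the array medians lay between 5.68 and 5.77. Across probe sets, which are not independent, Pearson r was 0.991 for the day 7 pair, 0.986 for the day 4 pair and 0.972 to 0.978 between arrays of unlike days. As a gauge of background, the 1105 olfactory receptor genes, which these cells are not known to use, had a median level of 3.38 and a 95th percentile of 5.23 on the same scale. Of the Wnt genes, 35 exceeded 5.23 on all 4 arrays, 7 on some arrays and 3 (Wnt2, Wnt16 and Dkk2) on no array. Background left in the signal makes the fold of a dim gene smaller than its true change.

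Markers of several cell types differed between the days as well. In lists of marker genes, 6 of 7 neural progenitor genes rose (mean level of the list 10.5 and 10.3 on the day 7 arrays, against 8.54 and 8.66 on the day 4 arrays), as did 5 of 7 measured genes of the eye field and optic vesicle (8.29 and 9.25 at day 7, against 6.08 and 6.79 at day 4). Pax6, which was called higher, was counted in both of these lists. Of 7 pluripotent and epiblast genes 5 fell (8.27 and 8.46 at day 7, against 10.6 and 10.4 at day 4). Of 7 pigment epithelium genes 4 rose (6.5 and 7.39, against 5.36 and 5.51), and of 7 measured dorsal midline genes 3 rose (8.27 and 8.59, against 6.25 and 6.53), a list that holds Wnt3a and Wnt8b. Of 6 neural crest genes 3 rose and 1 fell (7.33 and 7.32, against 6.17 and 6.33), and of 7 neuron genes 3 rose and 1 fell (7.59 and 7.55, against 6.92 and 6.90). Of 7 endoderm genes, 6 measured mesoderm and endothelial genes and 5 measured surface ectoderm genes, 1 each rose. Genes counted here as rising or falling were called by limma at an adjusted p under 0.05. Over all genes 6.15% were called higher and 4.33% lower. With lists this short, 1 call does not set a list apart from that background. The part of these cell types in the differences of the Wnt genes was not tested. In bulk RNA a change in the number of cells of a type cannot be told apart from a change in RNA per cell.

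The day 4 replicates were not level for these genes. Replicate 2 of day 4 read higher than replicate 1 for 39 of the 45 genes, with a median gap of 0.26 log2, whereas over all genes 51.5% were higher in replicate 2 and the median gap was 0.01. At day 7 replicate 2 was higher for 32 of 45 genes, with a median gap of 0.10, against 47.3% and a median of -0.01 over all genes. The day 7 arrays also differed in retinal markers. Replicate 2 was higher for 6 of 7 measured eye field genes (median gap 0.75) and 7 of 7 pigment epithelium genes (0.48). Among neural progenitor genes it was higher for 3 of 7, with a median gap of -0.16. Results that lose their call without 1 of the arrays are named below with their value.

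Of the 45 Wnt genes, 33 had a higher mean at day 7 than at day 4 and 12 a lower one. The list was chosen with earlier results of these data known, so the shares below describe it and do not test it. limma called 16 of 45 higher and 2 lower at an adjusted p under 0.05, with 27 not called. That is 40% of the genes, beside 10.5% of all 22180 genes, and the background by direction was 6.15% higher and 4.33% lower. Of all genes, 6993 exceeded the olfactory receptor 95th percentile on no array, against 3 of the 45 Wnt genes. Among genes with a mean level above that percentile limma called 2694 of 14358, and 18 higher and 4 lower of 41 Wnt genes. Among genes above the median level it called 2572 of 11090, and 16 higher and 3 lower of 29 Wnt genes. With each array centred on its median the split of all 45 Wnt genes was 17 higher and 5 lower, and 2603 of all 22180 genes were called. With an array left out 1 of the days rests on 1 array, and both counts moved, as given at the end beside the range over all genes. The median log2 difference was 0.27 over the 45 genes and -0.00 over all genes. For the same 45 genes the median gap between the day 4 replicates was about as wide, at 0.26. The days did not overlap for 30 of the 45 genes, 24 above and 6 below, where all genes had 50.8%, 25.6% and 25.1%. A stricter reading, in which the gap between the days is wider than the gap between replicates at either day, left 15 genes above and 2 below, with 12.9% and 11.1% of all genes. Of the 16 genes called higher, 12 rose at least 2-fold.

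**Figure D1:**
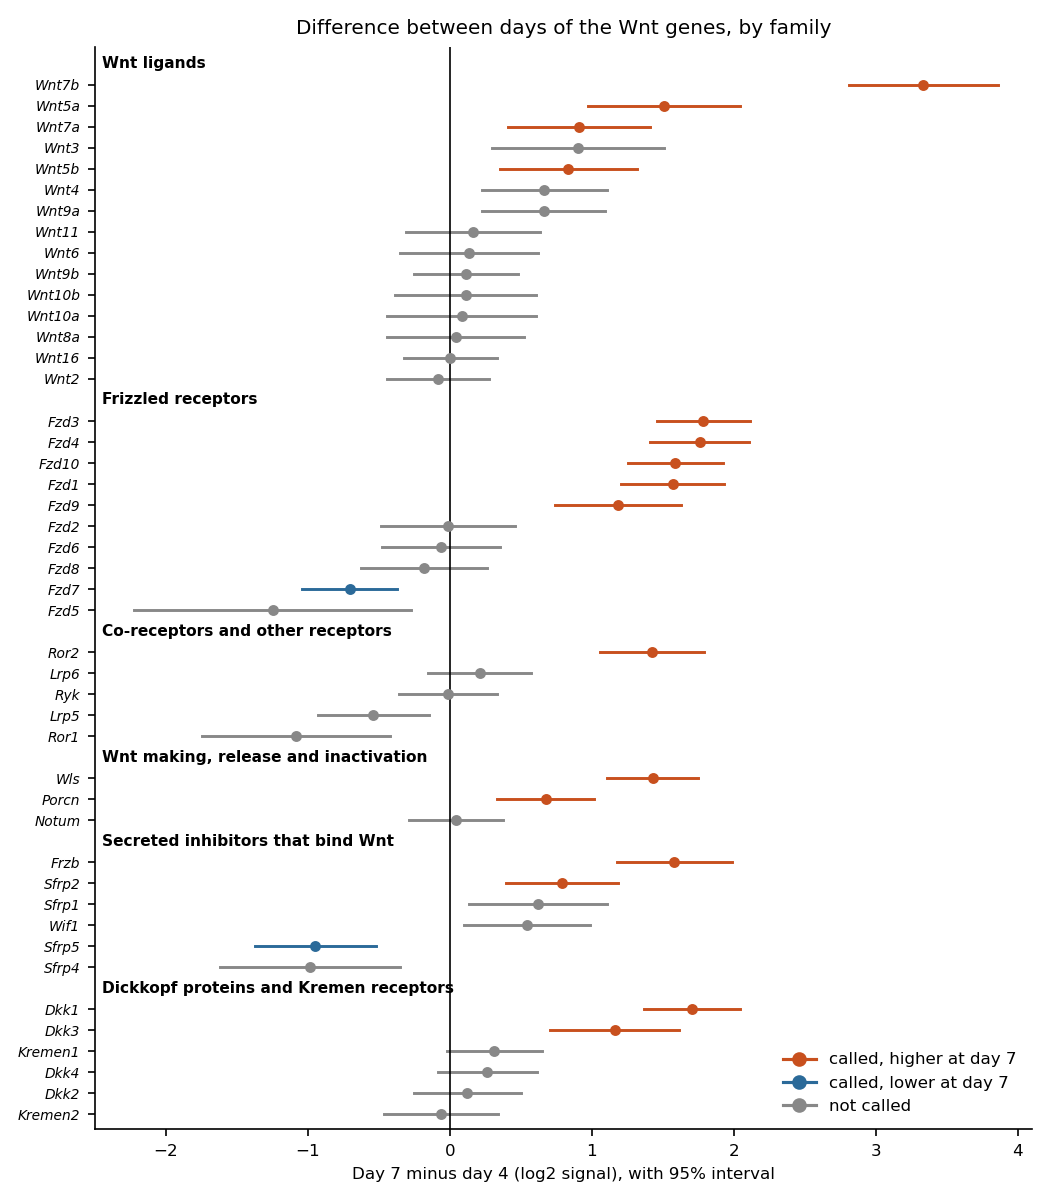
Day 7 minus day 4 difference of each of the 45 Wnt genes on the log2 scale (points) with limma's 95% interval (lines), grouped by family. Wnt7b stands apart at 3.34, a band of ligand, receptor, inhibitor and release genes lies between 1.16 and 1.78, and Fzd7 and Sfrp5 are the genes called lower.

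RefSeq promoter sequence (GRCm38.p6) was at hand for 28 of the 45 genes, at 31 start sites, 13 of these genes being called. The 250 bases before each start were searched on both strands for the TCF/LEF motif, to which the nuclear partners of beta-catenin bind, with the letters CTTTGAA, the letters CTTTGAT, the letters CTTTGTA or the letters CTTTGTT. A match was found at 4 of 31 starts (12.9%), and at 14.8% of the 32851 promoters in the table. Dkk1 held 2 matches, in capitals below, at 117 and 98 bases before its start, and 1.43% of all promoters held 2 or more. Single matches lay before Fzd7, before the most downstream start of Wnt5b and before the upstream start of Wnt11. Fzd4, the gene with the largest rise among those with a promoter here, held no match in this window. A match is a run of letters and no proof of binding. These promoters were also rich in CpG, with a median of 20 CpG per 250 bases and 65.2% G and C, against 6 and 52.4% over all promoters. The sequences of these 5 starts are shown 5′ to 3′ on the strand of the gene, because they are the ones this motif result turns on, with motif matches on either strand in capitals.
Dkk1, chr19:30549497-30549746, minus strand: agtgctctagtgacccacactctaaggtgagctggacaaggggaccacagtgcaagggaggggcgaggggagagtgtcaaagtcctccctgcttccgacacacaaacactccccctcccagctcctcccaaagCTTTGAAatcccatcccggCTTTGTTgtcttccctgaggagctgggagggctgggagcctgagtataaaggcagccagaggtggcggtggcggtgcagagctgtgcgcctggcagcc
Fzd7, chr1:59481897-59482146, plus strand: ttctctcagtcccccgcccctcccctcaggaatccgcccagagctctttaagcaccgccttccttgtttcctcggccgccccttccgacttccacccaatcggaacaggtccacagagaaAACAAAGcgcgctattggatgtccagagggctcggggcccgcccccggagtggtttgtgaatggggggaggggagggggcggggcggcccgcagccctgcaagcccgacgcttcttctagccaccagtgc
Wnt5b, chr6:119449387-119449636, minus strand: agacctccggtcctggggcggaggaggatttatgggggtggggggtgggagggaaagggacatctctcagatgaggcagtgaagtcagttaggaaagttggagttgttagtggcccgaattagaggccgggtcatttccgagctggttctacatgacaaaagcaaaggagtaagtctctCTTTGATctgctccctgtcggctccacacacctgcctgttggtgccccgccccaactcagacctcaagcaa
Wnt11, chr7:98834862-98835111, plus strand: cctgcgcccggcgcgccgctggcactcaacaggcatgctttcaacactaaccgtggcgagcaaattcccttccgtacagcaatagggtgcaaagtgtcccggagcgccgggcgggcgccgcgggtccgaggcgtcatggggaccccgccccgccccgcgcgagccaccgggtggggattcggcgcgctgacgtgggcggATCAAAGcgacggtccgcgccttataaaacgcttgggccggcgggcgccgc
Fzd4, chr7:89404116-89404365, plus strand: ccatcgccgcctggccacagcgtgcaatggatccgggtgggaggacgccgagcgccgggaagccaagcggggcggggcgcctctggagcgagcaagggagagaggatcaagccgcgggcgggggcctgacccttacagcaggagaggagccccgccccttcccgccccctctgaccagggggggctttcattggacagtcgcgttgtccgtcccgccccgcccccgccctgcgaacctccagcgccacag

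Among the 15 ligands, 4 rose by day 7, Wnt7b, Wnt5a, Wnt7a and Wnt5b, and 11 were not called. Wnt7b (probe set 17320079), a ligand of the developing forebrain that can signal through beta-catenin, read 9.50 and 8.89 in day 7 aggregates, against 5.73 and 5.98 in day 4 aggregates. Its 2 day 7 values lay far above both day 4 values. The rise was 10.1-fold (log2 difference 3.34, SE 0.222, adjusted p = 0.000297), with a 95% interval of 7.02-fold to 14.5-fold, and only 39 of all 22180 genes had a larger log2 difference. Without each array in turn it lay between 8.16-fold and 12.5-fold. Its close relative Wnt7a (probe set 17469016) read 7.16 and 6.56 on the day 7 arrays, against 5.90 and 6.0 on the day 4 arrays. The rise of Wnt7a was 1.88-fold (interval 1.33 to 2.66, adjusted p = 0.0378). Its days did not overlap, but the gap between its day 7 replicates was wider than the gap between the days. The call on Wnt7a was lost without day 4 replicate 1 (adjusted p = 0.092), day 4 replicate 2 (0.0548) or day 7 replicate 1 (0.204), and with quantile normalization (0.0525).

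The ligands Wnt5a and Wnt5b, known mainly for signalling that does not pass through beta-catenin, both rose. Wnt5a (probe set 17298112) read 6.01 and 6.18 on the day 7 arrays, against 4.26 and 4.92 on the day 4 arrays. Both day 4 values were in the range of the olfactory receptor genes and both day 7 values were above it. The rise was 2.84-fold (log2 difference 1.51, SE 0.227, adjusted p = 0.00713, and 0.0618 with day 7 replicate 2 left out). Wnt5b (probe set 17470313) read 6.82 and 6.84 on the day 7 arrays, against 5.71 and 6.28 on the day 4 arrays. Its days did not overlap either, and the gap between its day 4 replicates was wider than the gap between the days. The rise was 1.78-fold (log2 difference 0.83, SE 0.204, adjusted p = 0.0456). That p was 0.101 with day 4 replicate 1 left out, 0.208 and 0.21 without day 7 replicate 1 or 2, and 0.0505 with quantile normalization.

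For 3 more ligands both day 7 values were above both day 4 values without a call. Over all genes 25.6% showed that order, and 50.8% had days that did not overlap in either direction. Wnt3, a ligand of the primitive streak in the early mouse embryo, read 5.94 and 6.04 on the day 7 arrays, against 4.69 and 5.49 on the day 4 arrays (log2 difference 0.90, adjusted p = 0.0728). Wnt4 read 6.91 and 7.02 on the day 7 arrays, against 6.06 and 6.53 on the day 4 arrays (0.67, adjusted p = 0.071). Wnt9a read 6.85 and 7.17 on the day 7 arrays, against 6.18 and 6.52 on the day 4 arrays (0.66, adjusted p = 0.0681). In all 3 the lower day 4 value was that of replicate 1. Without day 4 replicate 2 their adjusted p-values were 0.00308, 0.0158 and 0.036, and with day 7 replicate 2 left out they were 0.298, 0.321 and 0.368, in the same order. The other 8 ligands (Wnt2, Wnt6, Wnt8a, Wnt9b, Wnt10a, Wnt10b, Wnt11 and Wnt16) had log2 differences between -0.08 and 0.16, with overlapping days in each. Their 95% intervals reached from -0.44 to 0.63 at the widest, so rises above about 1.55-fold lay outside them, and their mean levels ran from 4.30 (Wnt16) to 6.58 (Wnt11). The annotated spans of Wnt3 and Wnt9b overlap in the RefSeq gene table (GRCm38.p6). Their differences were 0.90 and 0.12, and whether either probe set reads the other gene was not tested.

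**Figure D2:**
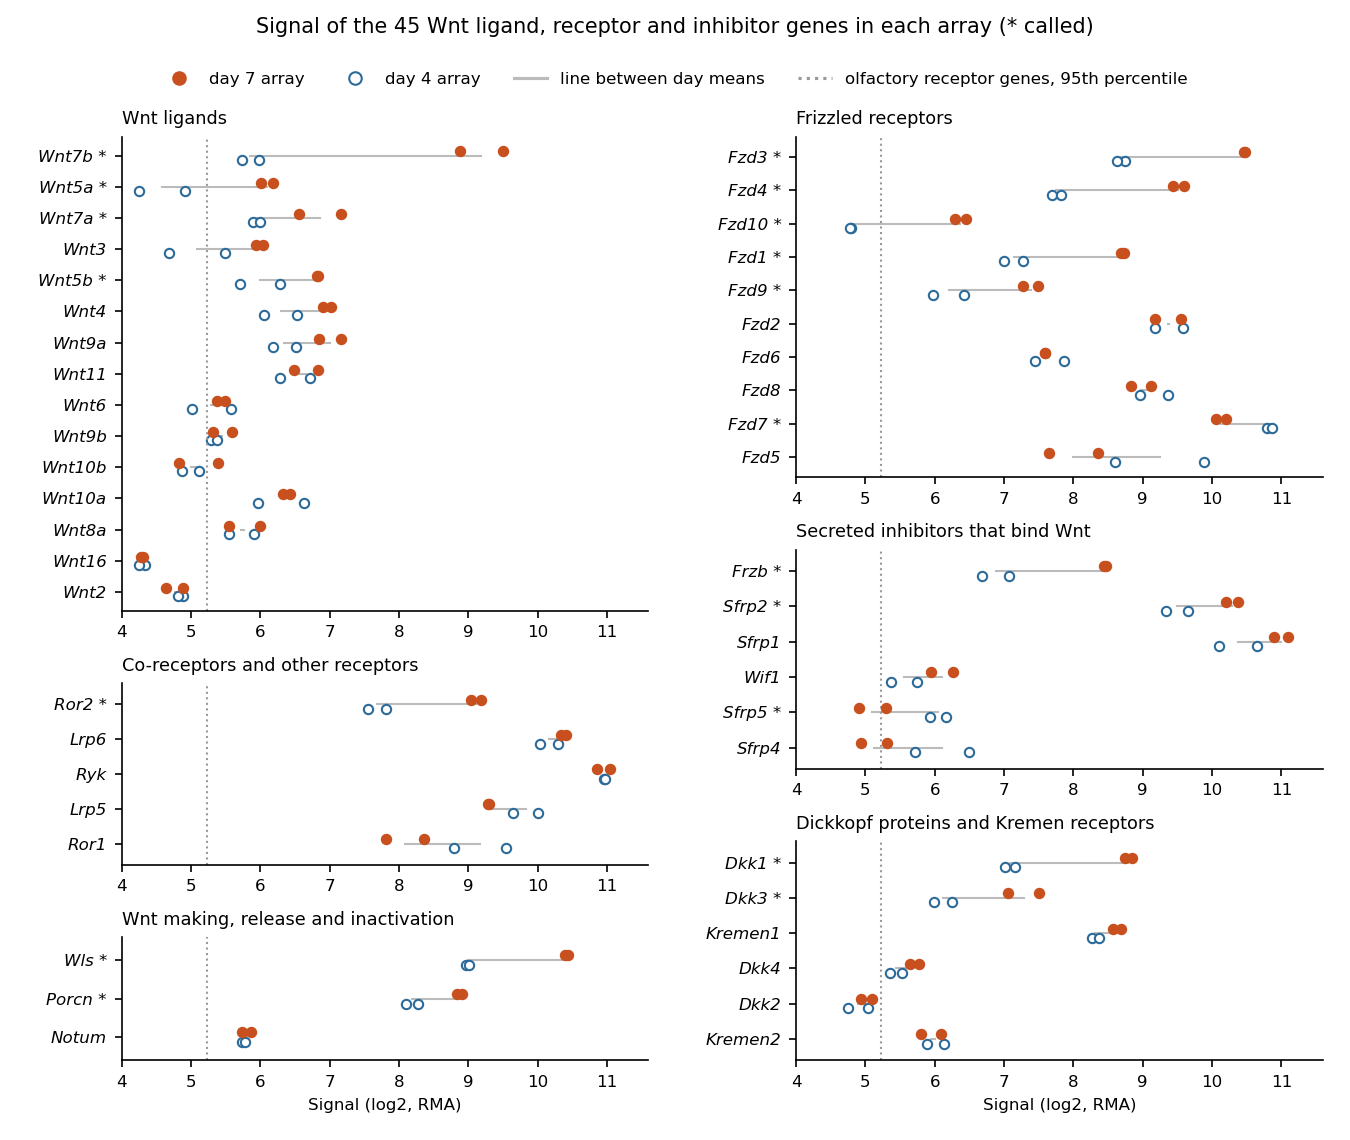
Log2 RMA signal of each of the 45 Wnt genes in every array, in panels by family, with filled points for day 7, open points for day 4, a grey line between the day means and a dotted line at 5.23, the 95th percentile of the olfactory receptor genes. Asterisks mark called genes. The day 7 points of Wnt7b, Fzd3, Fzd4, Frzb, Dkk1 and Wls are clear of their day 4 points, and the day 4 points of Fzd5 lie furthest apart.

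The Frizzled receptors went both ways. Of 10, 5 rose (Fzd3, Fzd4, Fzd10, Fzd1 and Fzd9), Fzd7 fell and 4 were not called, and the log2 differences ran from -1.25 to 1.78. Fzd3 (probe set 17307738), a receptor of axon growth and planar polarity, read 10.46 and 10.48 on the day 7 arrays, against 8.74 and 8.62 on the day 4 arrays. Replicates lay close together at either day. The rise was 3.45-fold (log2 difference 1.78, SE 0.139, adjusted p = 0.000564). Fzd4 (probe set 17480036), the receptor through which Norrin acts in retinal vessels, read 9.43 and 9.60 on the day 7 arrays, against 7.69 and 7.82 on the day 4 arrays. It rose 3.39-fold (adjusted p = 0.000739).

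Fzd10 (probe set 17442796), a receptor of the dorsal neural tube, read 6.45 and 6.29 on the day 7 arrays, against 4.79 and 4.78 on the day 4 arrays. Its day 4 values were within the olfactory receptor range, and its rise on this scale was 3.01-fold (adjusted p = 0.000929). Fzd1 (probe set 17445325), a widely expressed receptor, read 8.69 and 8.74 on the day 7 arrays, against 7.01 and 7.28 on the day 4 arrays. It rose 2.97-fold (adjusted p = 0.00126). Fzd9 (probe set 17453541), a receptor found in neural precursors, read 7.50 and 7.27 on the day 7 arrays, against 5.98 and 6.42 on the day 4 arrays, a rise of 2.27-fold (adjusted p = 0.00885). Both day 7 values of Fzd9 were above both of day 4, and its adjusted p was 0.0847 with day 7 replicate 1 left out.

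Fzd7 (probe set 17213265), a receptor known in pluripotent stem cells, read 10.05 and 10.20 on the day 7 arrays, against 10.80 and 10.86 on the day 4 arrays. The days did not overlap. The gene was 1.63-fold lower (log2 difference -0.71, SE 0.142, adjusted p = 0.0218). That p was 0.0501 with day 4 replicate 2 left out, 0.181 with day 7 replicate 1 left out and 0.102 with day 7 replicate 2 left out. Fzd5 (probe set 17223793), a receptor needed for eye development in Xenopus and mouse, read 7.64 and 8.35 on the day 7 arrays, against 8.60 and 9.89 on the day 4 arrays. Both day 7 values were below both of day 4, but the day 4 replicates differed by 1.28, the widest gap of the 45 genes, and limma did not call it (log2 difference -1.25, SE 0.413, adjusted p = 0.117). Without day 4 replicate 1 the difference was -1.89 (adjusted p = 0.00703), and without day 4 replicate 2 it was -0.61 (adjusted p = 0.239). With each array centred on its median its adjusted p was 0.0418. The other 3 receptors, Fzd2, Fzd6 and Fzd8, had differences from -0.18 to -0.01 with overlapping days and 95% intervals within -0.62 and 0.46.

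**Figure D3:**
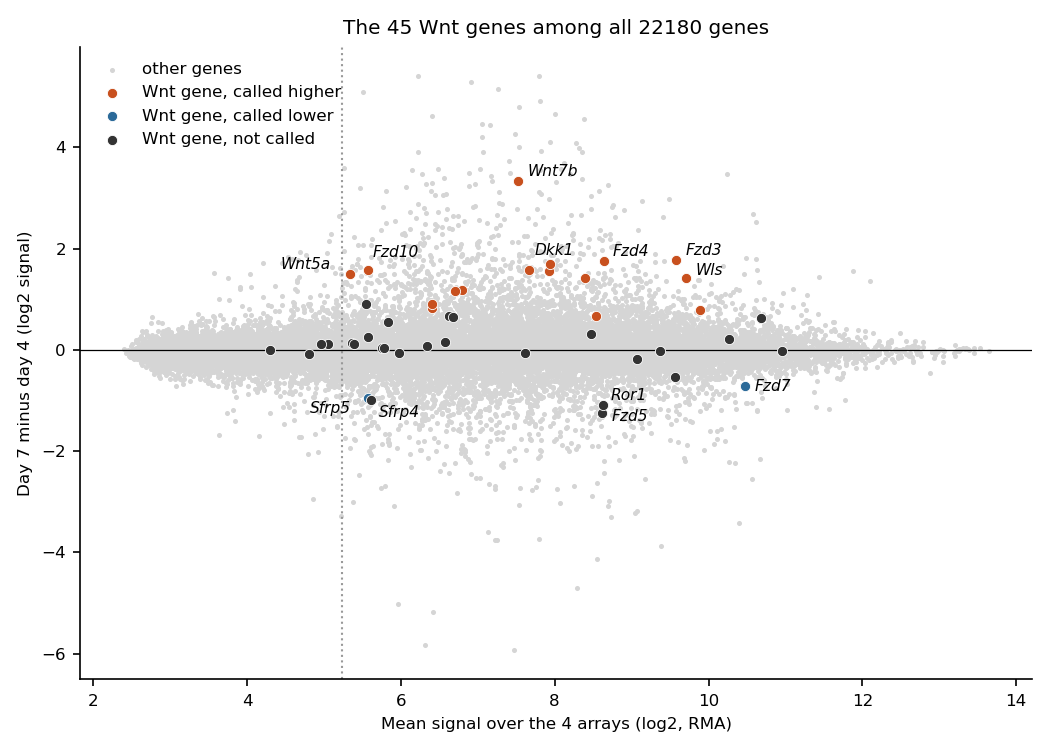
Day 7 minus day 4 difference on the log2 scale against the mean log2 signal over the 4 arrays, for all 22180 genes (grey) and the 45 Wnt genes (coloured by call), with the dotted line at 5.23. Wnt7b lies among the larger rises of the whole array, Fzd7 is called lower at high signal, and Sfrp5 lies just right of the dotted line.

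Of the 5 co-receptors and other receptors, Ror2 rose and 4 were not called. Ror2 (probe set 17292640), a receptor kinase for Wnt5a, read 9.18 and 9.05 on the day 7 arrays, against 7.56 and 7.81 on the day 4 arrays. The days were well apart, and the rise was 2.69-fold (log2 difference 1.43, SE 0.156, adjusted p = 0.00188). Its relative Ror1 (probe set 17415835) read 7.81 and 8.36 on the day 7 arrays, against 8.79 and 9.54 on the day 4 arrays. Both day 7 values of Ror1 were the lower ones, with a log2 difference of -1.08 that just missed the threshold (SE 0.281, adjusted p = 0.0551). It was 0.0111 with day 4 replicate 1 left out and 0.0148 with median centring, but 0.306 with day 7 replicate 1 left out.

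Neither co-receptor of the beta-catenin route was called. Lrp5 read 9.28 and 9.30 on the day 7 arrays, against 9.65 and 10.01 on the day 4 arrays (log2 difference -0.54, interval -0.93 to -0.15, adjusted p = 0.095). The difference was -0.72 with day 4 replicate 1 left out and -0.36 with day 4 replicate 2 left out. Both day 7 values of Lrp5 were below both of day 4. Its adjusted p in limma was 0.0461 among genes above the median level, 0.0309 with an intensity trend and 0.0962 with quantile normalization. Lrp6 read 10.33 and 10.41 on the day 7 arrays, against 10.03 and 10.29 on the day 4 arrays (0.21, interval -0.15 to 0.57, adjusted p = 0.519). A second, dimmer probe set of Lrp6 had a difference of 0.14. Ryk, a receptor without an active kinase, had overlapping days and a difference of -0.01 (interval -0.36 to 0.33).

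Of the genes that make, release and inactivate Wnt proteins, Wls and Porcn rose and Notum was not called. Wls (probe set 17403950), the carrier that takes Wnt proteins to the surface, read 10.40 and 10.44 on the day 7 arrays, against 8.97 and 9.01 on the day 4 arrays. Replicates differed by under 0.05 at either day. The rise was 2.69-fold (log2 difference 1.43, SE 0.137, adjusted p = 0.00117). Porcn (probe set 17540059), the enzyme that adds the lipid, read 8.83 and 8.91 on the day 7 arrays, against 8.11 and 8.28 on the day 4 arrays, 1.60-fold higher (adjusted p = 0.0276). The days of Porcn did not overlap, but its adjusted p was 0.084 with day 4 replicate 1 left out, 0.151 with day 7 replicate 1 left out and 0.188 with day 7 replicate 2 left out. Notum had a difference of 0.04 (interval -0.29 to 0.37), and its second probe set one of 0.35.

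The secreted proteins that bind Wnt went both ways. Of 6, Frzb and Sfrp2 rose, Sfrp5 fell and 3 were not called, and in all 6 the days did not overlap, 4 above and 2 below. With 2 arrays per day that is common, at 50.8% of all genes, 25.6% above and 25.1% below. Frzb (probe set 17387305), an Sfrp-like antagonist, read 8.44 and 8.48 on the day 7 arrays, against 6.68 and 7.08 on the day 4 arrays. It was 2.99-fold higher (log2 difference 1.58, SE 0.172, adjusted p = 0.00186). Sfrp2 (probe set 17398557), an antagonist expressed in the optic cup, read 10.20 and 10.38 on the day 7 arrays, against 9.34 and 9.66 on the day 4 arrays, 1.73-fold higher (adjusted p = 0.026). The call on Sfrp2 was lost without day 4 replicate 1 (adjusted p = 0.0772), day 7 replicate 1 (0.112) or day 7 replicate 2 (0.186). A second, dimmer probe set of Sfrp2 had a difference of 0.19, and with the mean of both probe sets the adjusted p was 0.117. Sfrp1, its close relative, read 11.10 and 10.90 on the day 7 arrays, against 10.10 and 10.65 on the day 4 arrays (log2 difference 0.62, adjusted p = 0.116). The difference of Sfrp1 was 0.90 with day 4 replicate 2 left out and 0.35 with day 4 replicate 1 left out.

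Sfrp5 (probe set 17364820), an antagonist of the anterior endoderm and foregut, read 4.91 and 5.29 on the day 7 arrays, against 5.93 and 6.16 on the day 4 arrays. Only 1 of its day 7 values, that of replicate 2, exceeded the olfactory receptor range. It was 1.93-fold lower on this scale (log2 difference -0.95, SE 0.180, adjusted p = 0.0178, and 0.141 with day 7 replicate 1 left out). The values of Sfrp4 ran the same way, at 5.31 and 4.93 on the day 7 arrays, against 6.5 and 5.72 on the day 4 arrays, but was not called (log2 difference -0.98, SE 0.268, adjusted p = 0.0646). The difference of Sfrp4 was -1.37 with day 4 replicate 2 left out and -0.59 with day 4 replicate 1 left out. Its adjusted p in limma was 0.0317 with median centring and 0.103 with quantile normalization. Wif1, which binds Wnt through a domain of its own, read 5.94 and 6.26 on the day 7 arrays, against 5.37 and 5.74 on the day 4 arrays (0.54, adjusted p = 0.131).

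Of the Dickkopf and Kremen genes, Dkk1 and Dkk3 rose and 4 were not called. Dkk1 (probe set 17363895), the head inducer that blocks Lrp5 and Lrp6 and whose promoter is printed above, read 8.74 and 8.84 on the day 7 arrays, against 7.02 and 7.16 on the day 4 arrays. The gap between the days was 1.59, against replicate gaps of 0.10 at day 7 and 0.13 at day 4. The rise was 3.26-fold (log2 difference 1.71, SE 0.143, adjusted p = 0.000737). Dkk3 (probe set 17495191), a divergent member that does not block Lrp6 as Dkk1 does, read 7.06 and 7.50 on the day 7 arrays, against 5.99 and 6.25 on the day 4 arrays, 2.23-fold higher (adjusted p = 0.0102, and 0.0765 with day 7 replicate 2 left out). The receptors of Dkk1 differed less. Kremen1 had a difference of 0.31 (interval -0.02 to 0.65, adjusted p = 0.247) with days that did not overlap, and Kremen2 had overlapping days and a difference of -0.06. Dkk2 and Dkk4 had differences of 0.12 and 0.27, at mean levels of 4.96 and 5.57.

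Of the 18 called genes, 9 kept an adjusted p under 0.05 whichever array was left out: Wnt7b, Fzd3, Fzd4, Fzd10, Fzd1, Ror2, Wls, Frzb and Dkk1. They also kept it under all other alternatives in which they were tested. The other 9 lost it without at least 1 array. Leaving an array out shifted no called fold by more than 1.26 times, the shift of Wnt5a. The sign of the difference was the same in all alternatives for all 28 genes with values by array.

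**Figure D4:**
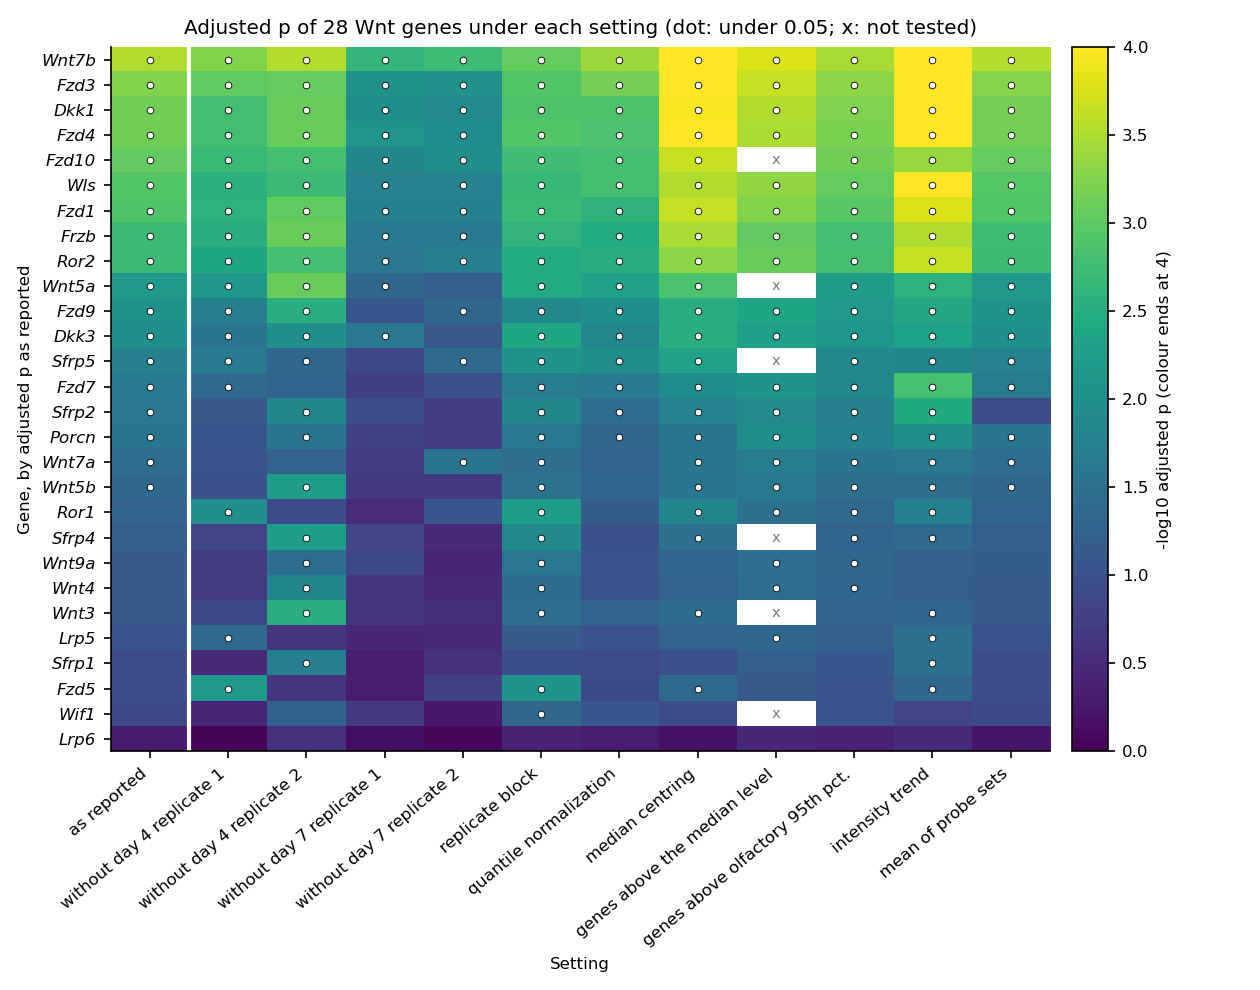
Adjusted p of the 28 Wnt genes examined under each alternative, as -log10 by colour, with genes ordered by the p of the reported fit (left column). Dots mark an adjusted p under 0.05 and crosses genes that a filter removed. The upper 9 genes hold a dot in each column in which they were tested, and the columns without a day 7 array hold the fewest.

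Other genes of the pathway were counted from lists, also chosen with earlier results of these data known. The shares over all genes, dim ones included, for these counts and those of the planar polarity branch, were 6.15% called higher and 4.33% called lower. Limited to genes with a mean level above the olfactory receptor 95th percentile, limma called 2694 of 14358, in either direction. Most genes counted here were not dim. That percentile was exceeded on all 4 arrays by 23 of 28 secreted or surface genes, 21 of 22 inside the cell and 12 of 13 of planar polarity. Among 28 further secreted or surface genes of Wnt signalling, 11 rose and 1 fell, with a median log2 difference of 0.56. The largest differences were those of the ligand Wnt8b (42.7-fold) and of the R-spondins Rspo3, Rspo2 and Rspo1 (30.2-fold, 15.2-fold and 4.31-fold), which strengthen Wnt signals at the receptor. The day 4 values of Wnt8b (4.94 and 5.23) and Rspo3 (5.48 and 5.21) lay close to the olfactory receptor 95th percentile. The gene that fell, named after its values were seen, was Cer1, an antagonist of Nodal, BMP and Wnt, at 4.16-fold lower (adjusted p = 0.00156). Both day 7 values of Cer1, 5.19 and 4.99, were within the olfactory receptor range. Inside the cell, 4 of 22 measured genes of the beta-catenin route rose and 18 were not called, with a median difference of 0.14. They were the beta-catenin cofactor Pygo1 (9.74-fold, adjusted p = 9.78e-05), the feedback genes Nkd1 (4.76-fold) and Axin2 (4.36-fold), and Dvl3, which relays the signal from Frizzled (1.76-fold, adjusted p = 0.0196). Pygo1 also read close to the olfactory receptor 95th percentile at day 4 (5.47 and 5.16). Without day 4 replicate 1, day 7 replicate 1 or day 7 replicate 2 the adjusted p of Dvl3 was 0.0564, 0.131 or 0.129.

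In the planar polarity branch, which orients cells within a sheet, 3 of 13 measured genes rose and 3 fell, with a median difference of 0.38. Prickle1 was 3.41-fold lower (adjusted p = 0.00118) and Celsr3, a cadherin that acts with Fzd3 in axon tracts, 2.40-fold lower (adjusted p = 0.00592, and 0.0572 with day 7 replicate 1 left out). Its relative Celsr2 was 2.46-fold higher (adjusted p = 0.00396). Dact1, which binds Dishevelled, was 1.81-fold higher (adjusted p = 0.009), with 0.0944 and 0.0667 without day 7 replicate 1 or 2 and 0.0982 with the mean of its probe sets. To complete these counts, named after their values were seen, Celsr1 was 1.57-fold higher (adjusted p = 0.0412) and Ankrd6 1.5-fold lower (adjusted p = 0.0444), and over the omissions of 1 array these p-values reached 0.22 and 0.259. With quantile normalization that of Celsr1 was 0.0726.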

How the data were processed

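Biotin-labelled sense-strand cDNA from 4 samples was measured on Affymetrix arrays, 1 sample per array. The authors deposited log2 values per probe set, which the submitters' processing notes credit to RMA run in Partek 6.5. Its settings are not given in the sources used here. RMA evens out the arrays and would hide a change common to most genes.

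The platform annotation paired 23521 of 41345 probe sets with exactly 1 gene, 1814 with several and 16010 with none. The one with the highest mean per gene was kept, giving 22180 genes. Lrp6, Notum and Sfrp2 had a second probe set. limma 3.58.1 in R 4.3.3 (lmFit, then eBayes) gave day 7 minus day 4, fitted on day alone, which leaves 2 residual degrees of freedom. The test was two-sided, with Benjamini-Hochberg adjustment across the 22180 genes and a call at an adjusted p under 0.05. Intervals are limma's moderated 95% intervals. With 2 arrays per day, their number limits how precise any value is. The fit was tested on simulated data.

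Members and lists were chosen with earlier results of these data known. Genes called, or with a log2 difference of at least 0.5, and Lrp6 are given by array, and the rest by counts, ranges and examples. In each pathway list up to 4 called genes with the largest differences were named, and Cer1, Celsr1 and Ankrd6 were added to complete small counts. Gsk3a, Tcf7, Rock2, Msx1, T and Krt5, also listed, were not analysed here. Promoters are RefSeq's (GRCm38.p6), matched by gene identifier. Alternatives were leaving out each array, the replicate number as a block, quantile normalization, median centring, filters on dim genes, an intensity trend, the mean of probe sets and a threshold of 0.01.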

Additional observations from a re-analysis of the deposited data

How the results depend on the processing

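Leaving out each array in turn gave 11 to 19 Wnt genes called higher (16 with all arrays), 0 to 5 called lower (2 with all arrays) and 887 to 2500 of all genes (2324 with all arrays). The array left out leaves 1 sample for its day, which is then assumed to vary like the other day. The fewest lower calls came without day 7 replicate 1 and the most without day 4 replicate 1. All genes had 887 calls without day 7 replicate 1 and 994 without day 7 replicate 2. The count called lower was 5 with the replicate block (2770 of all 22180 genes called) and with median centring (2603 called). It was 4 among genes above the olfactory receptor 95th percentile (2694 of 14358 called) and 6 with an intensity trend (2975 of 22180 called). At an adjusted p under 0.01 it was 0, where 1078 of all genes were called. At an unadjusted p under 0.05 in limma 6 were lower, and 5118 of all genes passed in either direction. The count called higher lay between 11 and 20 over all alternatives. The cause of these shifts was not tested. Same-numbered arrays share no stated source. The replicate 2 minus replicate 1 gaps of day 7 and day 4 correlated over genes with r = 0.186, and the block gave 20 higher and 2770 calls over all genes. With median centring the median difference of all genes was -0.05 log2. Over 43 named genes and all alternatives the sign of the difference never turned, and in 46 cases a call was lost and in 33 gained.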
